A study of Rattus norvegicus with 28 samples.

Results

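Naive striatal libraries were divided by 1 transcribed pseudogene, LOC500476, which was read at a clear level in some libraries and at the edge of detection in others. The members were chosen by the measured level of LOC500476 itself: libraries above 10 RPM (reads per 1000000 reads assigned to genes) were called on and those below 1 RPM off. Of the 16 naive libraries, 7 were on and 9 were off, and none lay between the limits. The series holds 28 libraries in all, and the 12 libraries from rats with a nerve crush, which took no part in the choice, were divided by the same limits into 7 on and 5 off.

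All libraries came from the striatum of male rats, and the labels give 12 weeks after injury for every group, naive rats included. Wild-type rats (wt) carried no transgene, and the transgenic rats (TG, {delta}ETorA in the labels) carry the mutant torsinA of DYT-TOR1A dystonia, an inherited movement disorder. The groups were wt naive (n = 8), TG naive (n = 8), wt crush (n = 6) and TG crush (n = 6), where crush means that the right sciatic nerve was crushed for 30 seconds. Which promoter drives the transgene was not analysed here. The human TOR1A row read at least 102 RPM in every TG library and at most 0.972 RPM in every wt library, so no library went against its genotype label. Libraries held 29151455 to 38407359 assigned reads. Summed RPM of spiny neuron markers, which define the projection neurons of the striatum, ranged from 8188 to 16278 in the naive libraries.

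A processed pseudogene is a copy of a spliced mRNA that was written back into the genome, and such copies can be transcribed from where they landed. Heat shock cognate 70 (HSC70), the product of Hspa8, is a constitutive chaperone that folds proteins and strips clathrin from coated vesicles, and its abundant mRNA has left many copies in rodent genomes. Because copies of 1 mRNA are close in sequence, a short read may fit several of them, and reads of near-identical copies cannot be told apart with certainty.

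LOC500476 is annotated as a pseudogene on the plus strand of chromosome 5, from 84571472 to 84573949 (Rnor_6.0), and no other gene of the table overlaps it. RefSeq now lists it under the symbol Hspa8-ps11. The following levels chose the groups, so they are a description and were not tested. Among wt naive libraries, 197 read 11.7 RPM and 199 read 15.4 RPM. The other 6 wt naive libraries ranged from 0.0602 to 0.564 RPM, with a median of 0.128. So 2 of 8 wt naive libraries were on, and the 2 groups of values lie far apart.

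In TG naive libraries the balance ran the other way, with 5 of 8 libraries on. Libraries 187, 189, 190, 191 and 192 read 14.0, 14.0, 11.1, 10.4 and 17.9 RPM. Libraries 188, 193 and 194 read 0.103, 0.112 and 0.0830 RPM. The on libraries held 330 to 577 reads of LOC500476 and the off libraries 2 to 18, the 18 reads being those of wt naive library 202. The members nearest to the limits were TG naive 191 at 10.4 RPM and wt naive 202 at 0.564 RPM. For comparison, a count of 0 would allow up to 0.103 RPM in the library of lowest depth, so most off libraries lay near the level of detection, for counting error only.

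Crush libraries showed the same pair of states and a higher level besides. All 6 wt crush libraries were on, with 25.0, 16.4, 14.1, 13.4, 26.3 and 25.1 RPM in 203, 205, 206, 207, 209 and 210. Of the TG crush libraries only 214 was on, at 25.2 RPM, and the other 5 ranged from 0.0620 to 0.140 RPM. Libraries 203, 209, 210 and 214 stood above 20 RPM, a level that no naive library reached. The other 10 on libraries, naive and crush together, ranged from 10.4 to 17.9 RPM.

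**Figure D1:**
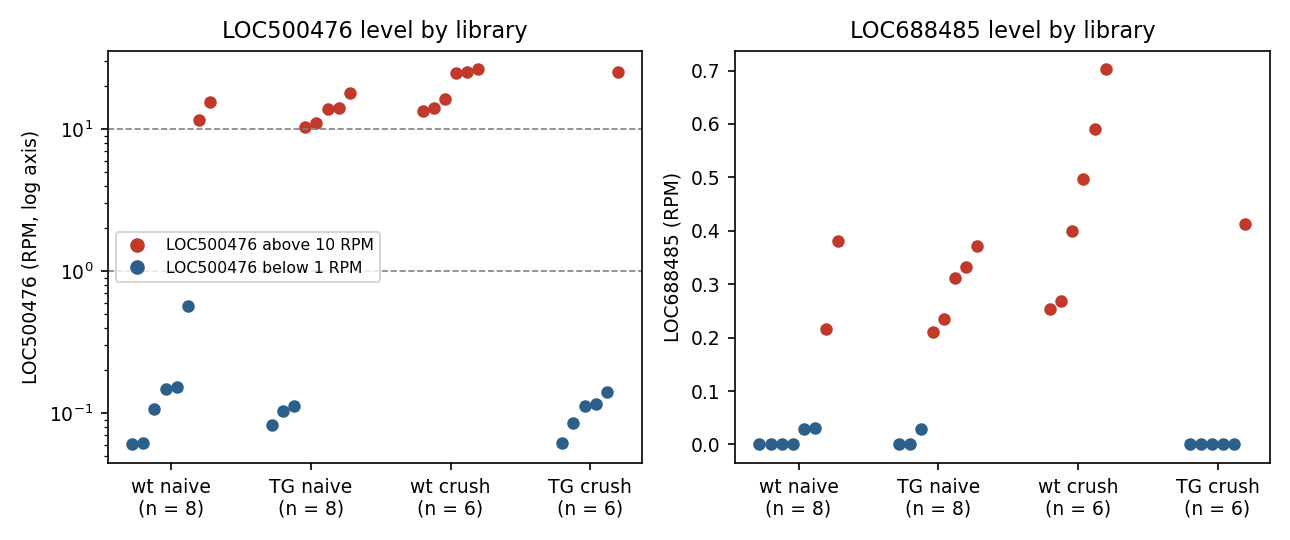
RPM of LOC500476 (left, log axis) and of LOC688485 (right, linear axis) in each of the 28 libraries by group, coloured by whether LOC500476 was above 10 or below 1 RPM (dashed lines). No library lies between the lines on the left, and on the right every library at or above 0.21 RPM of LOC688485 is one with LOC500476 on.

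Whether a library was on did not follow genotype in a constant direction. In naive libraries 5 of 8 TG and 2 of 8 wt were on (Fisher's exact test, two-sided, p = 0.315). After crush 1 of 6 TG and 6 of 6 wt were on (exact p = 0.0152, 0.0303 after Benjamini-Hochberg adjustment over 4 such tests). Within wt rats, 6 of 6 crush against 2 of 8 naive libraries were on (exact p = 0.00966, adjusted 0.0303). Within TG rats, 1 of 6 crush against 5 of 8 naive libraries were on (exact p = 0.138, adjusted 0.183). Over all 28 libraries 6 of 14 TG and 8 of 14 wt were on (exact p = 0.706), so the direction of the naive arm was turned. These tests count each library as independent. The sequencing run, litter and breeding line of each library were not given, so the state could not be set against them.

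LOC500476 was set against its parent gene by its portion of the reads of both. Hspa8 lies on the plus strand of chromosome 8 from 44989401 to 44993261, and its level did not separate the states. It ranged from 97.3 to 135 RPM in the 7 on and from 100 to 133 RPM in the 9 off naive libraries. The log2 difference, on minus off with genotype in the model, was -0.11 (SE 0.07, limma adjusted p = 0.769). LOC500476 made up 8.997% to 12.2% of the reads of the pair in the 7 naive on libraries (exact 95% binomial intervals from 8.09% to 13.2%). In the off libraries it made up 0.0491% to 0.546%.

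The crush libraries extended this in 2 steps. Over all 28 libraries, the 10 on libraries up to 20 RPM had shares of 8.997% to 12.2%, median 10.9%. The 4 libraries above 20 RPM had shares of 19.5% to 22.1%, median 20.4%, at an Hspa8 level of 89.0 to 103 RPM. These are shares of reads and not levels per length, and the intervals cover counting error only. Shares did not overlap between the 3 bands, which the RPM limits helped to fix.

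**Figure D2:**
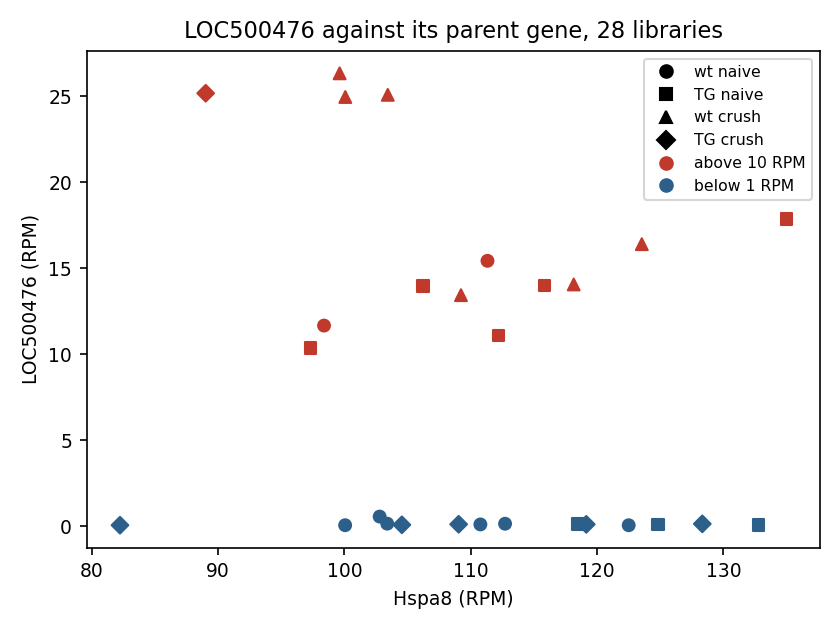
RPM of LOC500476 (y axis) against RPM of Hspa8 (x axis) in the 28 libraries, with the marker giving the group and the colour giving the state of LOC500476. Libraries with LOC500476 off span 82.2 to 133 RPM of Hspa8, and the 4 libraries above 20 RPM of LOC500476 sit at 89.0 to 103 RPM of Hspa8.

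None of the tested copies of Hspa8 passed the test between the states, and most were slightly lower in on libraries. Of 33 Hspa8 pseudogenes that RefSeq names by symbol, 31 have a row in the table, and 16 of these besides LOC500476 were expressed enough to be tested. Together with Hspa8 itself, 0 of 17 tested family rows were called by limma, and 0 of 17 had an unadjusted p under 0.05, against 6.43% of all genes tested. Their log2 differences ran from -0.12 to 0.04 and 16 of 17 were negative, with a median of -0.10 where all genes had 0.03. These rows may share reads with one another, which was not tested, so they cannot be taken as independent. The coefficient of variation of RPM over the 28 libraries was 10.6% to 20.3% for these rows, median 11.8%, and 110% for LOC500476. The widest of them, LOC305639 on chromosome X, held 11.03 RPM in TG crush 226 and 4.15 to 7.10 RPM in the other 27 libraries.

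The copies that yielded most reads were LOC689955 on chromosome 6, with a mean of 173 RPM, and LOC100363133 on chromosome 5, with 166 RPM. LOC100363133 lies on the same chromosome as LOC500476, from 99030998 to 99033110. Its range was 147 to 205 RPM with LOC500476 on and 149 to 199 RPM with it off. LOC690801, also on chromosome 5 from 55800845 to 55802909, ranged from 34.2 to 49.0 RPM in on and from 35.6 to 49.0 RPM in off naive libraries. Each of these chromosome 5 copies overlapped almost completely between the groups.

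The exception was a copy too low for the main test. LOC688485, now listed as Hspa8-ps32, lies on chromosome 2 from 91065674 to 91067564 on the plus strand. It read 0.210 to 0.382 RPM (median 0.312, 7 to 13 reads) in the 7 naive on libraries. In the 9 naive off libraries it read 0 to 0.0305 RPM, that is 0 or 1 read each. The crush libraries, which were divided by the same limits on LOC500476, showed the same split. LOC688485 held 0.253 to 0.702 RPM (9 to 23 reads) in the 7 on libraries and 0 reads in the 5 off libraries.

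Summed over libraries, LOC688485 had 70 reads in the naive on and 3 in the naive off libraries, a ratio per assigned read of 29.9 (95% counting interval 9.80 to 148). In the crush arm 108 reads stood against 0, which makes the level at least 25.7-fold higher, with a floor of 3 counts over the 5 off libraries. With every gene that had a read in the model, its naive log2 difference was 0.64 (SE 0.05, limma adjusted p = 3.6e-05, log2 of RPM + 0.5). That fit called 0.0067% of 29867 genes, namely LOC688485 and LOC102550499. Reads of LOC500476, whose level chose the groups, may have been counted in LOC688485. The p of LOC688485 is therefore a description and not independent evidence. The same holds for its split in the crush libraries, which the level of LOC500476 also divided. In the crush arm LOC688485 had a log2 difference of 0.87 (SE 0.20, limma adjusted p = 0.257) with genotype in the model, which rests on 1 TG on library against 5.

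LOC688485 reads came to 1.80% to 2.47% of LOC500476 reads in the 10 on libraries up to 20 RPM and to 1.64% to 2.67% in the 4 above. The ratio of the 2 counts was thus alike in both bands, while both counts were higher in the second. Of the 39537 rows other than LOC500476, LOC688485 was the only one whose on and off values did not overlap over all 28 libraries, a share of 0.00253%. It was chosen after its values were seen. Whether reads of one copy were assigned to the other was not tested.

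Against the whole transcriptome, 1 gene passed the test between on and off naive libraries. Of 18446 genes tested by limma with genotype in the model, 1 was called (0.00542%), at an adjusted p under 0.05. At an unadjusted p under 0.05 there were 1187 genes (6.43%). limma-voom on whole reads also called 1 gene, the same one. The call was LOC102550499, a long noncoding RNA on the minus strand of chromosome 1 from 87066735 to 87070826. It met the floor of 0.5 RPM in at least 3 libraries only through the on group, where all 7 libraries were above 0.5 RPM and all 9 off libraries below, so its place among the tested genes depended on the difference itself. In the fit on every gene with a read, which has no such floor, its limma adjusted p was 0.00303. That fit used the same naive libraries and gave the same log2 difference of 0.708, with an SE of 0.0818 against 0.0998 in the main fit. The lower p thus came with a smaller SE and not a larger difference. It is not independent of the main call.

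LOC102550499 was a rare transcript in every library. It read 0.521 to 0.991 RPM (median 0.713, 19 to 33 reads) in the on and 0.166 to 0.415 RPM (median 0.305, 6 to 14 reads) in the off naive libraries, so the groups did not overlap. The highest values were those of wt naive 197 and 199 and TG naive 190, at 0.991, 0.969 and 0.908 RPM. Its difference was 0.71 on the log2 scale of RPM + 0.5 (SE 0.10, limma adjusted p = 0.0294), which understates the fold of so low a gene. It lies within the span of Capn12, a calpain protease gene on the opposite strand, and the strand setting used for counting was not known. Capn12 itself read 0.858 to 1.58 RPM in on and 0.664 to 1.598 RPM in off libraries, with a log2 difference of 0.11 (SE 0.13, limma adjusted p = 0.878).

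LOC102550499 did not pass the test in the crush arm. It read 0.176 to 0.559 RPM in the 7 on and 0.280 to 0.558 RPM in the 5 off libraries, which overlap, and every wt crush library was on. Within TG crush, library 214 was the highest at 0.559 RPM, next to 0.558 RPM in library 223. The log2 difference was 0.14 (SE 0.21, limma adjusted p = 0.986) with genotype in the model and -0.23 (SE 0.12, adjusted p = 0.418) without it. Over all 28 libraries with the 4 groups in the model it was 0.59 (SE 0.09, limma adjusted p = 0.0156), 1 of 18695 genes called (0.00535%). That fit was chosen after the data were seen and holds the naive libraries again, while wt crush had no off library to compare. It is therefore not independent of the naive call. In the naive arm the adjusted p was under 0.05 in 3 of 16 fits that each left out 1 library, with log2 differences of 0.67 to 0.75 throughout. The 3 naive libraries highest in LOC102550499 were also 3 of the 4 with over 20 RPM of Slc17a7, a vesicular glutamate transporter of cortical neurons, and the fourth, wt naive 202, was off and read 0.313 RPM at 55.2 RPM of Slc17a7. Without those 4 libraries the log2 difference was 0.53 (limma adjusted p = 0.9999). The part of tissue composition in this difference was not tested further.

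**Figure D3:**
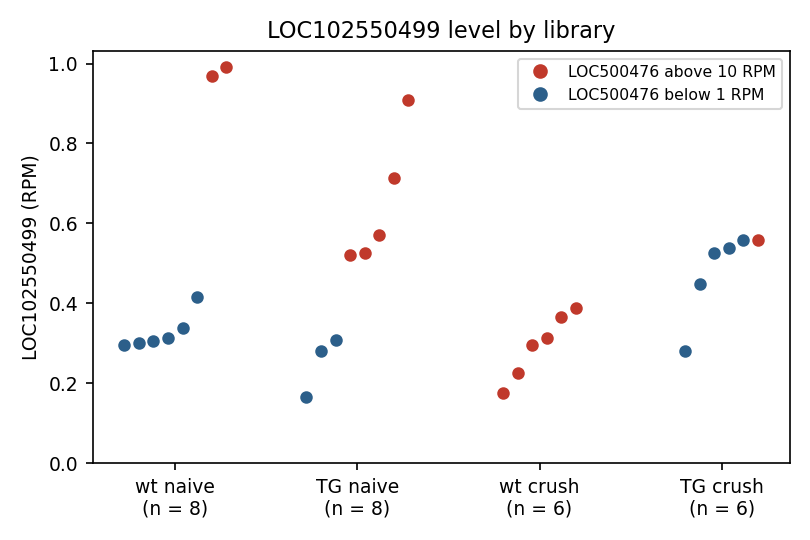
RPM of LOC102550499 in each of the 28 libraries by group, coloured by the state of LOC500476. Naive on libraries (0.521 to 0.991 RPM) lie above all naive off libraries (0.166 to 0.415 RPM), and in the crush groups the colours overlap.

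The genes next in order of p did not pass the adjusted threshold. Tlk1, a chromatin-associated kinase, read 35.5 to 42.6 RPM in on and 42.1 to 60.0 RPM in off libraries, with a log2 difference of -0.36 (SE 0.07, limma adjusted p = 0.491). Slc1a2, the main glutamate transporter of astrocytes, read 613 to 715 RPM in on and 467 to 636 RPM in off libraries, with 0.29 (SE 0.06, adjusted p = 0.766). Both pairs of ranges overlap. LOC102550527, a long noncoding RNA, had 0.52 (SE 0.10, adjusted p = 0.586), and Fscn2, an actin-bundling fascin, had 0.50 (SE 0.10, adjusted p = 0.586). In the crush arm, whose fit rests on 1 TG on library, the log2 differences were 0.23 (SE 0.16) for Tlk1, -0.07 (SE 0.14) for Slc1a2, -0.08 (SE 0.26) for LOC102550527 and -0.21 (SE 0.26) for Fscn2, and none of the 4 passed the test.

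Over the 16 naive libraries, the genes whose log2 level followed LOC500476 most closely are a description, since the same libraries gave the groups. LOC102550499 had a Pearson r of 0.87, Dpf3 0.77, Slc1a2 0.76, Apoa5 0.76 and LOC102555850 0.76. At the other end stood LOC102551116 at -0.81, LOC102551806 at -0.81, Tlk1 at -0.80, LOC100911871 at -0.80 and LOC685670 at -0.75. Dpf3 encodes a subunit of chromatin remodelling complexes, and it read 3.97 to 4.71 RPM in on and 2.68 to 4.10 RPM in off libraries. In the whole table, 3 of 39537 rows (0.00759%) had no overlap between naive on and off libraries: LOC102550499, LOC688485 and LOC102551116. The last, a long noncoding RNA on chromosome 6, read 0.0930 to 0.510 RPM in on and 0.512 to 0.730 RPM in off libraries, and its ranges overlapped after crush.

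Around LOC500476 on chromosome 5, no tested neighbour passed the test. Of 10 annotated genes within 2 Mb, 5 were expressed enough to be tested, and limma and limma-voom called 0 of them, with 0 of 5 at an unadjusted p under 0.05. Since 6.43% of all genes had such a p, a count of 0 among 5 says little about the neighbours. Brinp1, a neuronal cell cycle inhibitor and the nearest tested gene at 0.345 Mb, read a log2 difference of -0.23 (SE 0.13, limma adjusted p = 0.768). Tlr4, the receptor for bacterial endotoxin, had 0.10 (SE 0.16, adjusted p = 0.912) at 1.97 Mb on the other side. The pseudogene RGD1561195 had 0.10 (SE 0.08), the long noncoding RNA LOC108350985 0.13 (SE 0.16), and the centrosomal gene Cdk5rap2 0.05 (SE 0.09).

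The nearest annotated features were silent or nearly so. LOC108351129, a long noncoding RNA at 0.186 Mb, had 0 reads in every naive library, and LOC100362368, a pseudogene at 0.346 Mb, reached 0.0294 RPM at most. Within 5 Mb, 12 of 34 annotated genes were tested, 0 were called and 1 had an unadjusted p under 0.05 (8.33%, against 6.43% of all genes). In the crush arm 0 of 12 had an unadjusted p under 0.05, against 6.15% of all genes. Farther out among the 5 nearest tested genes on each side, Astn2 had 0.09, Trim32 -0.15, Tnc -0.06, Megf9 -0.04 and LOC683573 0.06, each with an adjusted p of 0.768 or more.

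**Figure D4:**
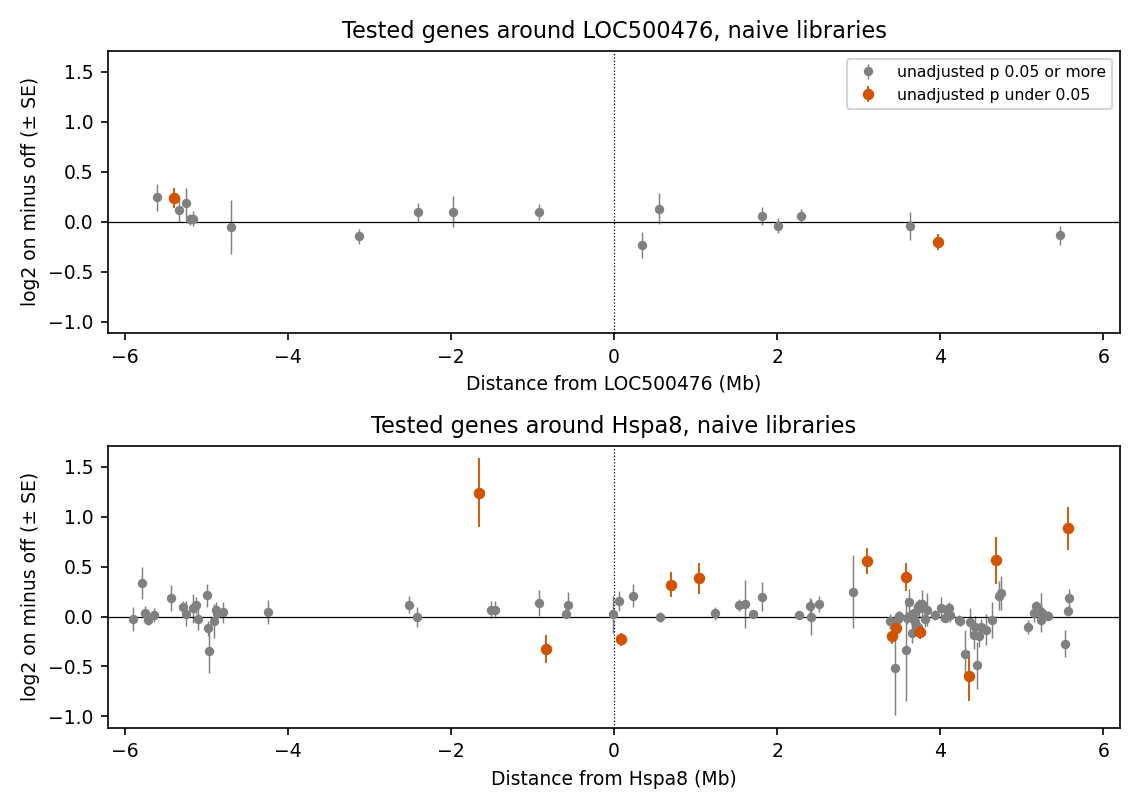
Log2 difference, on minus off, with its standard error for tested genes within 6 Mb of LOC500476 (top) and of Hspa8 (bottom) in the naive libraries, by distance in Mb. Around LOC500476 no gene within 2 Mb has an unadjusted p under 0.05 (orange), and around Hspa8 there are 5 of 19.

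The neighbourhood of the parent gene Hspa8 on chromosome 8 was looked at after the data were seen. In naive libraries 0 of 19 tested genes within 2 Mb were called, and 5 of 19 (26.3%) had an unadjusted p under 0.05, against 6.43% of all genes. Within 5 Mb there were 12 of 82 (14.6%). In the crush arm the shares were 3 of 19 (15.8%) and 8 of 77 (10.4%), against 6.15% of all genes. A fit per 10 RPM of LOC500476 over all 28 libraries, with the 4 groups in the model, did not repeat the excess within 5 Mb. There the shares were 1 of 19 (5.26%) and 2 of 82 (2.44%), against 2.41% of all genes. Per 10 RPM in the naive libraries alone they were 5 of 19 (26.3%) and 14 of 82 (17.1%). The 5 naive genes were RGD1311744 with a log2 difference of 1.24, Scn3b, a sodium channel subunit, with -0.32, RGD1309108 with -0.23, Lnc215 with 0.32 and LOC102547107 with 0.38, so they had both signs. Each had an adjusted p of 0.766.

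RGD1309108, now listed as Jhy, lies 0.0908 Mb from Hspa8, on the minus strand of chromosome 8 from 45084067 to 45140570. Jhy is known for a role in motile cilia of the ependyma. It was lowest in the 4 libraries with over 20 RPM of LOC500476, which read 3.81, 6.196, 4.86 and 4.68 RPM in wt crush 203, 209 and 210 and TG crush 214. The 10 other on libraries ranged from 7.05 to 9.37 RPM and the 14 off libraries from 8.59 to 11.7 RPM. The order of the 3 bands thus ran from high in off libraries to low above 20 RPM, with overlap only between the first and the middle band.

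In the tests RGD1309108 did not pass. Its naive log2 difference was -0.23 (SE 0.07, limma adjusted p = 0.766), with 7.499 to 9.37 RPM in on and 8.59 to 10.9 RPM in off libraries. After crush it was -1.01 (SE 0.28, adjusted p = 0.602), with 3.81 to 7.62 RPM in on and 8.68 to 11.7 RPM in off libraries, which do not overlap. The same lack of overlap after crush held for 275 rows of the table (0.696%). Per 10 RPM of LOC500476 over all 28 libraries with the 4 groups in the model it was -0.29 (SE 0.05, adjusted p = 0.0998), the lowest p of 18695 genes, of which 0 were called by limma and 451 (2.41%) had an unadjusted p under 0.05. Without the 4 libraries above 20 RPM it was -0.14 (SE 0.05, adjusted p = 0.720). The summed RPM of choroid plexus and ependyma markers was 12.3 to 16.7 in those 4 libraries, at the low end of the 28. Among other libraries with sums as low, TG crush 222 had 13.7 with 9.48 RPM of RGD1309108, wt naive 196 had 10.5 with 10.2 RPM and TG naive 189 had 11.2 with 7.499 RPM, the last being the lowest level of the 16 naive libraries. The part of these cells in the level of RGD1309108 was not tested.

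Apoa5, an apolipoprotein that regulates plasma triglycerides and is made mainly in liver, lies farther along chromosome 8, from 50559079 to 50561720. It read 0.571 to 2.11 RPM (median 1.54, 17 to 68 reads) in on and 0.181 to 0.920 RPM (median 0.522, 6 to 31 reads) in off naive libraries. In the crush arm it read 0.366 to 1.67 RPM in on and 0.0840 to 0.775 RPM in off libraries. In both arms the on libraries were mostly the higher ones, with overlap. The log2 difference was 0.88 (SE 0.21, limma adjusted p = 0.766) in naive and 1.18 (SE 0.43, adjusted p = 0.751) in crush libraries, and neither passed. Nectin1, a cell adhesion molecule of the same chromosome, had 0.55 (SE 0.13, adjusted p = 0.766) in naive and 0.19 (SE 0.32, adjusted p = 0.986) in crush libraries.

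**Figure D5:**
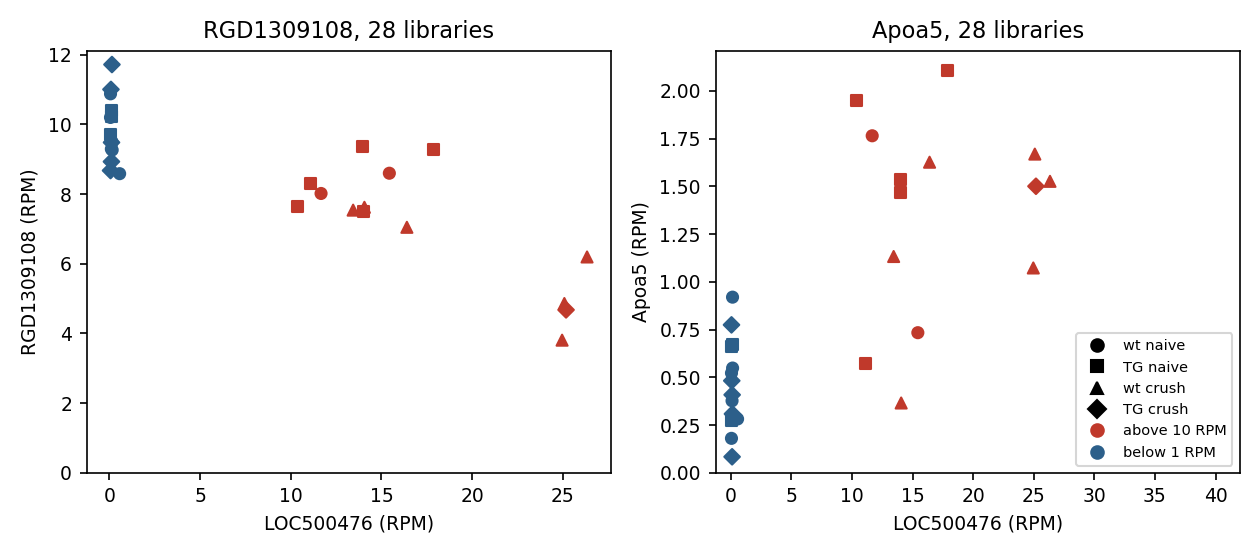
RPM of RGD1309108 (left) and Apoa5 (right) against RPM of LOC500476 in the 28 libraries, with the marker giving the group and the colour the state of LOC500476. RGD1309108 is 3.81 to 6.196 RPM in the 4 libraries above 20 RPM of LOC500476, and Apoa5 exceeds 0.920 RPM only in libraries with LOC500476 on.

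The difference between on and off was also compared between genotypes. In the interaction of state and genotype over the naive libraries, limma called 0 of 18446 genes (0%), with 939 at an unadjusted p under 0.05 (5.09%), and limma-voom called 0. The lowest p belonged to Cdc14b, a phosphatase of the cell cycle, with an interaction of -0.66 on the log2 scale (SE 0.14, adjusted p = 0.916). Nectin4 had -1.24 (SE 0.27) and Prlr, the prolactin receptor, -2.20 (SE 0.49), both at an adjusted p of 0.916. Cwf19l1 and Txnl1 followed with -0.42 and -0.39. Without TG naive library 188, Prlr was called, with -2.80 (SE 0.31, limma adjusted p = 0.00355). In that fit the TG off libraries were 193 and 194 alone, at 1.52 and 1.63 RPM of Prlr. Their summed choroid plexus and ependyma markers, 133 and 165 RPM, were the highest of the 28 libraries. The part of these cells in the Prlr call was not tested.

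The crush libraries gave the same comparison in rats outside the choice. With genotype in the model, limma called 0 of 18084 genes (0%), with 1113 at an unadjusted p under 0.05 (6.15%), and limma-voom called 0. This fit rests on TG crush 214 against the 5 other TG crush libraries, because every wt crush library was on. The lowest p belonged to Kirrel2, a cell adhesion gene, with a log2 difference of -1.37 (SE 0.20, adjusted p = 0.138), followed by LOC102551214 with 2.26, Itga8 with 1.25, Kif21b with -0.90 and Ido2 with 1.35. In naive libraries these 5 had log2 differences of 0.18, -0.46, -0.29, 0.25 and -0.25, each with an adjusted p of 0.768 or more. Without TG crush 219, Ifit1, an interferon-induced gene, was called (-2.10, SE 0.23, adjusted p = 0.0142). Without the genotype term 77 genes (0.426%) were called, 43 of them higher in on libraries, and there the state and genotype cannot be told apart, since 6 of 7 on libraries were wt. With genotype and every gene with a read, 57 of 29362 genes (0.194%) were called, 55 of them higher.

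Spiny neuron markers were mostly lower in the naive on libraries, and none passed the test. Of 20 spiny neuron markers 0 were called by limma, 11 had an unadjusted p under 0.05, all lower in on libraries, against 6.43% of all genes, and 19 of 20 had a negative log2 difference, with a median of -0.34 where all genes had 0.03. Drd1, the dopamine receptor of the direct pathway, had -0.46 (SE 0.18, adjusted p = 0.766), and Penk, the enkephalin precursor of the indirect pathway, had -0.31 (SE 0.11, adjusted p = 0.766). The summed RPM of the list was 8188 to 15252 in on and 8704 to 16278 in off libraries, which overlap. The lowest spiny neuron levels among the on libraries were those of wt naive 199, TG naive 192 and wt naive 197, with mean log2 levels of 7.90, 8.05 and 8.11. The off library wt naive 201 was as low, at 7.95. The part of this composition in the differences above was not tested beyond a fit that took the spiny neuron level as covariate, in which LOC102550499 had 0.60 (SE 0.11, adjusted p = 0.407).

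In the other lists 0 genes were called as well. Over all genes 0.00542% were called, 6.43% had an unadjusted p under 0.05, and the median log2 difference was 0.03. With so few calls over all genes, 0 calls in a list says little about that list. Of 10 astrocyte markers 0 were called and 3 had an unadjusted p under 0.05, all higher, with a median of 0.13. Of 12 markers of cortical excitatory neurons 0 were called, 1 had an unadjusted p under 0.05 and 10 had a positive difference, with a median of 0.40. Summed RPM of these cortical markers was 311 to 503 in on and 317 to 477 in off libraries, which overlap. Choroid plexus and ependyma markers had a median of -0.27 over 9 tested genes, with sums of 11.2 to 71.0 RPM in on and 10.5 to 165 RPM in off libraries. All 6 tested blood markers and all 4 tested pituitary markers had a negative difference, with medians of -0.46 and -0.47 and 0 at an unadjusted p under 0.05. Summed RPM was 16.5 to 236 in on and 21.5 to 120 in off libraries for blood, and 3.64 to 8.50 in on and 2.92 to 40.6 in off libraries for pituitary. Of 20 tested interferon-induced genes 19 had a negative difference, with a median of -0.11, and 1, Oasl, had an unadjusted p under 0.05. All 9 tested heat shock genes had a negative difference, with a median of -0.05, and only Hsph1, a co-chaperone of HSC70, had an unadjusted p under 0.05, at -0.19 (SE 0.09, adjusted p = 0.766). All 7 tested torsins and cofactors had a small positive difference, median 0.08, and 0 were called.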

How the data were processed

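Stranded mRNA libraries of 28 striatal samples were read single-end (75 nt) over 2 runs, per the labels' protocols, with the run of each library not given in the sources used here. Reads were processed with STAR 2.6.1a, featureCounts of Subread 1.6.3 and DESeq2 1.22.2 on Rnor_6.0, per the submitters' processing notes. For counting, a strand setting was not given in the sources used here. As a table, the authors deposited RPKM values with decimal commas (recorded as unit other) for 39538 genes, with the gene span as length. RPM was computed as RPKM times length in kilobases. In each library, 100% of RPM values were a whole number of steps (tolerance 0.02), so whole reads were recovered for limma-voom and for counts of reads.

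Genes with at least 0.5 RPM in at least 3 fitted libraries were tested on log2 (RPM + 0.5) with limma 3.58.1 (R 4.3.3, moderated variances that follow the mean), with genotype as a term and Benjamini-Hochberg adjustment over all tested genes except LOC500476. The threshold for a call was an adjusted p below 0.05. Nothing in the labels says more about separate animals than a number per library, so p-values measure the spread between libraries. The procedure of the main naive fit was checked on simulated counts with known changes between on and off. Those counts held no differences of genotype or tissue composition, so the check does not cover these. Fisher's exact tests and exact binomial intervals used scipy 1.17.1 in Python 3.11.15, and figures matplotlib 3.10.9.

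The members, the lists and the rule for named genes were chosen with earlier results of these data known. Genes were named as the 5 of lowest p in a fit with under 5 calls, the 5 nearest tested genes on each side of LOC500476, and the 5 most and 5 least like it. LOC688485, RGD1309108, Apoa5, Nectin1, Capn12, the Hspa8 family and the surroundings of Hspa8 were chosen after their values were seen, as were members singled out from lists. Of 229 entries in 18 lists, 224 were matched, after some symbols were respelled as in the table. Current symbols come from RefSeq (GRCr8), which gave names only. Alternatives were other pseudocounts (0.1 and 2), no filter, a stricter filter, median-of-ratios rescaling, the RPKM scale (pseudocount 0.1), limma-voom, no genotype term, array weights, a spiny neuron covariate, subsets of libraries, and, added after the data were seen, all 28 libraries and the RPM of LOC500476 in place of its state.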

Additional observations from a re-analysis of the deposited data

Results flagged for a closer look

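In 44 sets of 4 to 10 libraries examined for a value far from the rest, 6 were found. Chance gives about 1 in 20 independent sets, but these sets were not independent, so the 6 cannot be set against that rate. TG crush 214 accounted for 3 of these: it read 25.2 RPM of LOC500476 where the next TG crush library read 0.140, its LOC500476 reads were 22.1% of those of the pair with Hspa8 where the next had 0.109%, and it read 0.412 RPM of LOC688485 where the others had 0. Among wt naive libraries, 197 read 1.76 RPM of Apoa5 and the next highest 0.920 RPM. Slc17a7, a marker of cortical excitatory neurons, stood at 63.3 RPM in TG crush 220 with 10.6 RPM in the next TG crush library. It stood at 55.8 RPM in TG naive 190 with 9.37 RPM in the next TG naive library. TG naive 190 is also one of the libraries highest in LOC102550499.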

How the results depend on the processing

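The single call of the naive comparison was lost in most other settings. The number of genes called was 0 with a pseudocount of 2, 0 with the stricter filter, 0 on the RPKM scale, 0 without the genotype term, 0 with the spiny neuron covariate, 0 without libraries above 20 RPM of Slc17a7, 0 in wt naive rats alone, 0 in TG naive rats alone, and 0 with the RPM of LOC500476 in place of its state in naive or in all 28 libraries, with 254 to 2179 genes at an unadjusted p under 0.05 over these settings (limma). Without the filter it was 2. Leaving out 1 library gave 0 to 1, and 13 of 16 such fits lost it, those without TG naive 187, 188 or 189 being the exceptions. With the stricter filter, on the RPKM scale and in wt naive libraries alone LOC102550499 was not among the genes tested, and for the other settings the cause was not tested. In the fit on every gene with a read, LOC688485 passed in all 6 alternatives and all 16 leave-out fits, with limma adjusted p from 3.4e-06 to 0.00463. These fits share 1 limit: reads of LOC500476, which chose the groups, may have been counted in LOC688485, which was not tested.

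Within 2 Mb of LOC500476 the count was 0 in every setting run. The interaction gave 0 to 1 calls when 1 library was left out. The crush comparison gave 57 calls without the filter, 55 of them higher (0.194% of genes), 77 without the genotype term, and 0 to 1 when 1 library was left out; without TG crush 214 it was not run, because state and genotype then coincide. There LOC102550499 reversed to -0.23 without the genotype term. The association of state with genotype turned direction over all 28 libraries (p = 0.706, Fisher's exact test) and in the crush libraries (exact p = 0.0152). No paired analysis was possible because no replicate number is shared between groups. Genes near 0.5 RPM rest on few reads a library, such as 6 to 33 for LOC102550499.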
